A study of Sus scrofa with 15 samples.

Results

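This account concerns 9 genes of the prostaglandin and arachidonate pathway, of 19000 genes in the knockdown table and 17001 in the overexpression table, in the pig cell line IPEC-J2, a non-transformed epithelial line from the jejunum of a newborn piglet. The genes are PLA2G4A, MGLL, PTGS1, PTGS2, PTGES, PTGES2, PTGES3, HPGD and PTGER4. They were chosen by role and matched by NCBI Gene number in both tables, and they were selected on the FPKM values of these same libraries in so far as earlier results of the study were known when the list was drawn up. Their differences between vectors are therefore given as a description, also where a fit over all genes is quoted.

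RNA from cells carrying 5 lentiviral vectors was sequenced, with 3 libraries a vector. Lv133KD is the vector against miR-133 and Lv143KD carries miR-143 in its label, although the design text names miR-133 for it, so its target is unsettled. Both are set against the control vector Lv3NC, and these 9 libraries share a table. OV143 is the vector that overexpresses miR-143, and it is set against the control vector Lv20NC in a second table of 6 libraries. All groups share the parental line and carry a lentiviral vector, and no library of cells without a vector was analysed here. Neither table lists a miRNA, so whether a vector changed its miRNA could not be read from these data. Nothing in the labels tells separate cultures from repeat libraries of 1 culture, so a p-value here measures only the spread between the libraries at hand, which can be technical.

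Prostaglandin synthesis starts when a phospholipase such as cytosolic phospholipase A2 (PLA2G4A) frees arachidonate from membrane lipid, or when monoglyceride lipase (MGLL) frees it from the endocannabinoid 2-arachidonoylglycerol. The cyclooxygenases PTGS1, the constitutive form, and PTGS2, the form induced by mitogens and inflammatory signals, turn arachidonate into the unstable prostaglandin H, which the terminal synthases PTGES, PTGES2 and PTGES3 convert to prostaglandin E. In the gut, prostaglandin E acts through receptors such as PTGER4 and is known for protecting the mucosa and driving fluid secretion, while the dehydrogenase HPGD inactivates it. In human cells PTGS2 has been described as a target of miR-143.

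On the Sscrofa11.1 assembly, PTGS1 (NCBI Gene 397541) spans chr1:262456106-262482159, PTGES2 (100155133) spans chr1:268585725-268591356 and PTGES (654407) spans chr1:269911785-269924481. PTGS2 (397590) spans chr9:127850164-127858866, and its neighbour PLA2G4A (100520687) spans chr9:127853581-128164825. The annotated spans of this pair overlap by 5286 bp, which is 60.7% of the PTGS2 span, and the use of strand in counting is not given in the sources used here. Reads in the shared stretch could therefore have been given to either gene, and values of both carry that limit. MGLL (100233193) spans chr13:72480395-72568964, HPGD (100156186) chr14:15718261-15773534, PTGES3 (100155956) chr5:22000335-22022830 and PTGER4 (100625072) chr16:25670832-25686556. The tables give 1 FPKM value per gene and library, with no split by exon or transcript.

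Depth cannot be read from FPKM. Summed over genes, FPKM came to between 486086 and 520630 in knockdown libraries, while the sum of OV143 replicate 2 was 662022 and the other overexpression libraries had 518578 to 558042. OV143 replicate 2 stood apart in this sum. The libraries numbered 2 in the knockdown table did not, at 511817 to 519213. They had the fewest genes at 1 FPKM or more, 11250 to 11399, against 11453 to 11557 in the rest of that table. Libraries with the same replicate number deviated together, and a fit with the number as a block is given beside the fit without it wherever it changes a call. The epithelial keratin gene KRT8 averaged 741 and 754 FPKM in the knockdown and overexpression tables, and the adhesion gene EPCAM 300.5 and 596 FPKM, whereas the brush border gene VIL1 averaged 1.80 and 3.68 FPKM.

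The cells expressed 8 of the 9 genes. Levels of different genes are compared here in FPKM, which is scaled by transcript length. In the knockdown table PTGES was highest at 185.2 ± 30.5 FPKM (SD over 9 libraries), followed by PTGES3 at 137.0 ± 17.2 FPKM, and their ranges overlapped. PTGS2 (24.5 ± 10.0), MGLL (21.4 ± 3.35), PTGS1 (15.0 ± 3.88), PTGES2 (11.8 ± 0.924) and PLA2G4A (10.9 ± 3.21 FPKM) came next, with every neighbour in this order overlapping the one after it. PTGER4 lay apart from them at 3.21 ± 0.380 FPKM, near the middle of all listed genes at percentile 49.3, while PTGES stood at percentile 98.1. In the overexpression table the order was PTGES3, PTGES, PTGS1, PTGS2, MGLL, PTGES2, PLA2G4A and PTGER4. The only neighbours without overlap there were PTGES and PTGS1, at 109.8 to 185.4 and 11.2 to 32.9 FPKM, and PTGER4 and HPGD. The tables were normalised separately, so levels set across them carry that limit.

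HPGD, the enzyme that starts prostaglandin breakdown, was listed at 0 in 7 of 9 libraries of the knockdown table and in 4 of 6 of the overexpression table. The other values were 0.04 FPKM in Lv133KD replicate 2, 0.03 in Lv3NC replicate 1, 0.05 in OV143 replicate 2 and 0.23 in OV143 replicate 3. HPGD stayed below the filter of at least 1 FPKM in at least 3 libraries in both tables and was not tested. A listed 0 can also be a failed estimate, so no fold is given.

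The comparison of OV143 with Lv20NC asked which transcripts differ when miR-143 is overexpressed. PTGS2, PTGS1 and MGLL fell in OV143 cells in the fit with the replicate block, with ratios of means of 0.450, 0.513 and 0.561. The 3 terminal synthases, PLA2G4A and the receptor PTGER4 did not pass the test. In that fit 3 of the 8 genes above the filter were called, all of them lower, where 1.94% of the 11506 genes tested were called in either direction and 1.29% were called lower. Without the block 0 of the 8 were called by limma, where the share over all genes was 0%, while 3 of the 8 and 1304 of all genes had an unadjusted p under 0.05.

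PTGS2 had 13.1, 6.78 and 15.9 FPKM in OV143 replicates 1, 2 and 3, against 28.9, 25.2 and 25.4 FPKM in Lv20NC replicates 1, 2 and 3. Every OV143 library lay below every Lv20NC library, and OV143 replicate 2 was the lowest. The means were 11.9 ± 4.66 FPKM in OV143 and 26.5 ± 2.08 FPKM in Lv20NC (SD, n = 3 each), a ratio of 0.450. Set against the library with the same number, PTGS2 in OV143 stood at 45.4%, 27.0% and 62.6% of its control. The log2 fold change of FPKM + 1 was -1.16, with an SE of 0.17 and a limma adjusted p of 0.0130 with the replicate block, and an SE of 0.27 and an adjusted p of 0.211 without it.

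PTGS1 had 16.8, 11.2 and 17.4 FPKM in OV143, against 32.5, 32.9 and 22.8 FPKM in Lv20NC. The groups did not overlap, but the highest OV143 and the lowest Lv20NC value both came from replicate 3 and lay closer together than in the other pairs. PTGS1 averaged 15.1 ± 3.41 FPKM in OV143 and 29.4 ± 5.70 FPKM in Lv20NC (SD, n = 3 each), and the same-number values were 51.5%, 34.0% and 76.0% of control. Its log2 fold change was -0.92, with an SE of 0.17 and a limma adjusted p of 0.0297 with the block, and an SE of 0.20 and an adjusted p of 0.202 without it. Both cyclooxygenase transcripts were thus lower in 3 of 3 pairs, with the smallest difference in replicate 3 and the greatest in replicate 2.

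MGLL, which hydrolyses monoglycerides, had 10.9, 12.0 and 11.5 FPKM in OV143, against 21.0, 19.6 and 20.7 FPKM in Lv20NC. Its libraries were the most even of the 3 genes, and the groups lay far apart relative to their spread. MGLL averaged 11.5 ± 0.561 FPKM in OV143 and 20.4 ± 0.720 FPKM in Lv20NC (SD, n = 3 each), a ratio of 0.561, and stood at 51.9%, 61.1% and 55.5% of its same-number controls. The log2 fold change was -0.78, with an SE of 0.10 and a limma adjusted p of 0.00802 with the block, and an SE of 0.09 and an adjusted p of 0.0762 without it. Of the variation of log2(FPKM + 1) over the 6 libraries, 98.6% lay between the vectors for MGLL, 77.0% for PTGS1 and 74.0% for PTGS2, beside a median of 18.9% over all tested genes. The share was as high for PTGES3 (78.5%) and PTGER4 (75.4%), which were not called. For PTGES, PTGES2 and PLA2G4A it was 7.51%, 1.07% and 6.19%.

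OV143 replicate 2 bears on the PTGS2 value in particular. Without it the log2 fold changes were -0.83 for PTGS2, -0.73 for PTGS1 and -0.81 for MGLL, and limma called all 3 genes without any block, with adjusted p of 0.00126, 0.0136 and 0.000577. In that fit 4.48% of 11414 genes tested were called in either direction and 3.16% were called lower. With the block and both libraries numbered 2 left out, the log2 fold changes were -0.86, -0.65 and -0.84. Leaving out any other single library of the table gave no call among the 8 genes without the block.

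**Figure D1:**
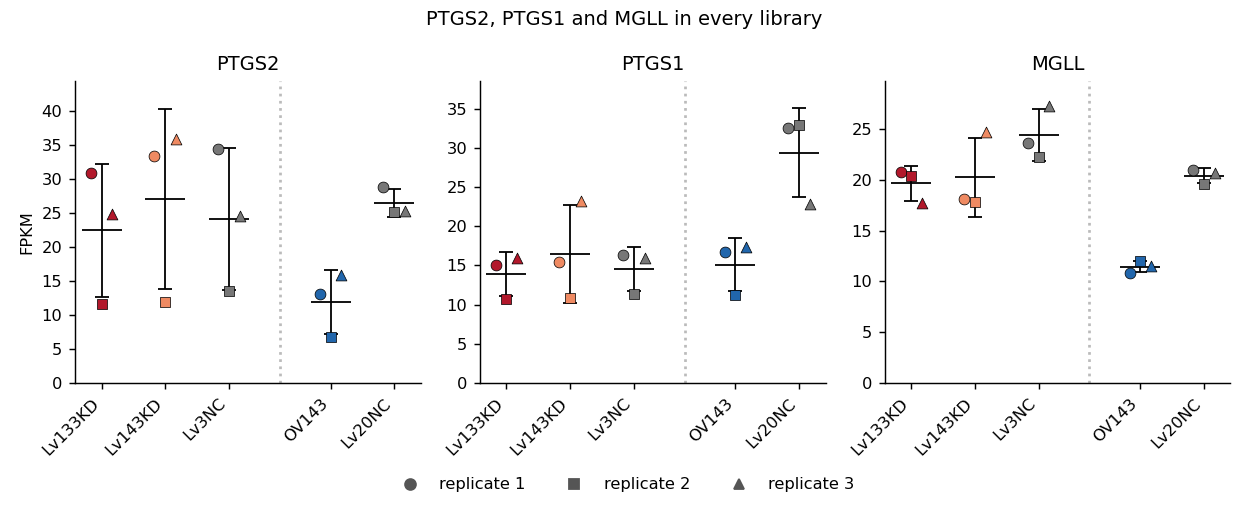
FPKM of PTGS2, PTGS1 and MGLL (vertical axes, from 0) in each of the 15 libraries by vector, with the replicate number given by the marker, the mean as a horizontal line and the SD as bars. The dotted line parts the knockdown table from the overexpression table, which were normalised separately. OV143 points lie below all Lv20NC points for the 3 genes, and in the knockdown table the libraries numbered 2 are the lowest for PTGS2 and PTGS1.

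PLA2G4A, the phospholipase gene beside PTGS2, had 8.27, 5.76 and 8.86 FPKM in OV143, against 8.27, 7.31 and 8.74 FPKM in Lv20NC. The groups overlapped, and replicate 2 was the lowest library in each. Its log2 fold change was -0.09 with an SE of 0.11 with the block, and the gene was not called in any fit.

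PTGES, the inducible microsomal synthase that is usually coupled with PTGS2, had 109.8, 185.4 and 116.0 FPKM in OV143, against 119.0, 129.1 and 115.1 FPKM in Lv20NC. OV143 replicate 2 was the highest library of the table, while replicate 1 lay below and replicate 3 within the range of Lv20NC. The log2 fold change was 0.14 with all libraries and -0.10 without OV143 replicate 2, so its direction rested on that library. PTGES2, a second membrane-associated synthase, had 7.68, 11.6 and 7.06 FPKM in OV143, against 9.28, 10.0 and 7.61 FPKM in Lv20NC. OV143 replicate 2 was again the highest library of the table, with replicate 1 within and replicate 3 below the range of Lv20NC. Its log2 fold change was -0.05 and, without OV143 replicate 2, -0.24. In that library PTGS2 and PTGS1 had their lowest values of the table and these synthases their highest. Its FPKM sum was also the highest, at 662022, and the values given here are not corrected for it. How far the high synthase values reflect that sum was not tested.

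PTGES3, a cytosolic synthase better known as a co-chaperone of heat shock proteins, had 182.8, 181.0 and 186.5 FPKM in OV143, against 157.3, 171.0 and 168.3 FPKM in Lv20NC. PTGER4, the receptor that couples prostaglandin E to cyclic AMP, had 6.23, 5.37 and 5.72 FPKM in OV143, against 5.02, 4.93 and 4.76 FPKM in Lv20NC. For both genes every OV143 library lay above every Lv20NC library, but the differences were small. The log2 fold change was 0.15 (SE 0.10, limma adjusted p = 0.415 with the block) for PTGES3 and 0.20 (SE 0.11, adjusted p = 0.326) for PTGER4, and neither was called. Groups without overlap were thus found for 5 of the 8 genes in either direction, where 21.9% of all tested genes had them, and for 3 in the lower direction, where the share was 12.9%. The median log2 fold change of the 8 genes was -0.07, beside -0.02 over all genes.

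**Figure D2:**
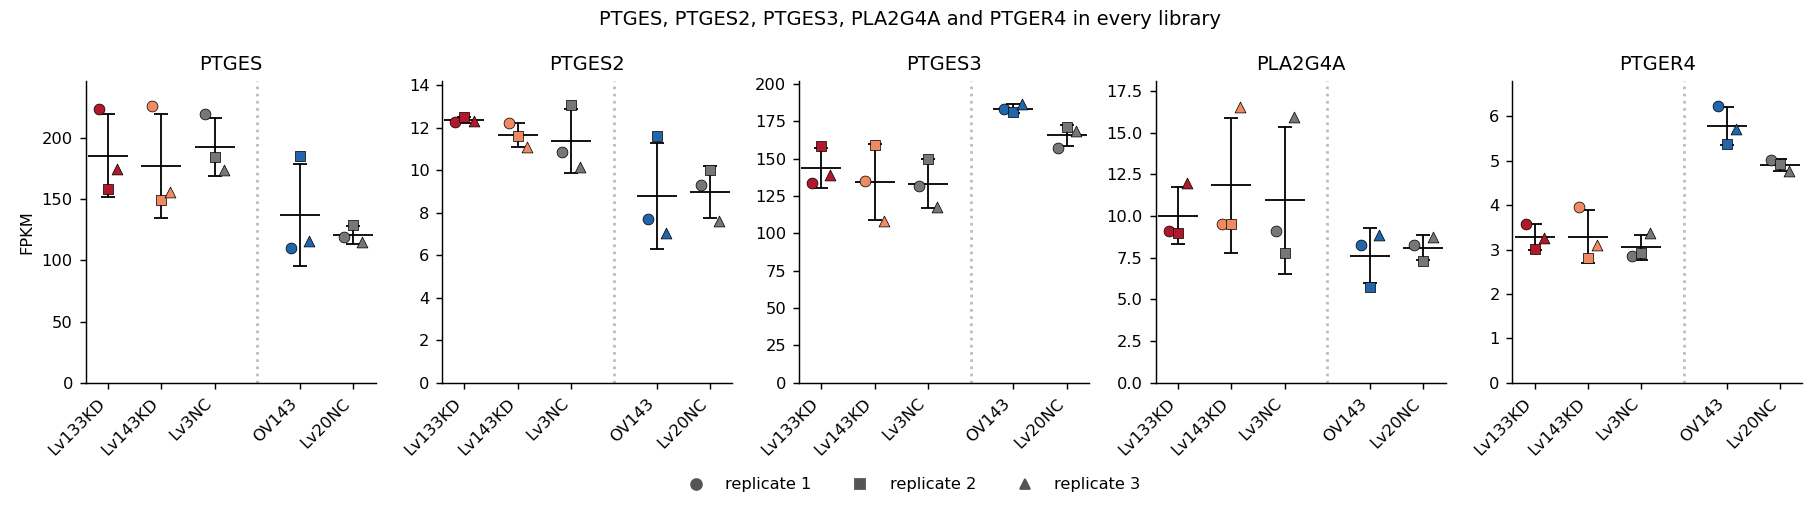
FPKM of PTGES, PTGES2, PTGES3, PLA2G4A and PTGER4 (vertical axes, from 0) in each of the 15 libraries by vector, with the mean as a horizontal line and the SD as bars. The dotted line parts the separately normalised tables. OV143 replicate 2 is the highest overexpression library for PTGES (185.4 FPKM) and PTGES2 (11.6 FPKM), and OV143 lies above Lv20NC without overlap for PTGES3 and PTGER4.

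The ratio of PTGS2 to PTGS1 in FPKM was 0.781, 0.607 and 0.914 in OV143 replicates 1, 2 and 3, against 0.887, 0.764 and 1.11 in Lv20NC. It was lower in OV143 in 3 of 3 pairs, yet the groups overlapped. In both vectors replicate 2 had the lowest ratio and replicate 3 the highest.

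The comparisons of Lv133KD and Lv143KD with Lv3NC asked which transcripts differ under the knockdown vectors. None of the 8 genes above the filter was called in either, with or without the replicate block. Groups overlapped for all 8 genes except MGLL under Lv133KD. The 2 comparisons share their Lv3NC libraries, so their values are not independent. For Lv133KD, limma called 0.0172% of 11645 genes without the block and 0.258% with it, and 8.02% of genes had groups without overlap, as 1 of the 8 did. For Lv143KD the shares were 0.0172%, 0.172% and 4.14%, and 0 of the 8 had groups without overlap. At an unadjusted p under 0.05 stood 1922 of all genes for Lv133KD and 669 for Lv143KD with the block, with 1 of the 8 genes, MGLL, in the first and 0 in the second. Without the block these counts were 380 and 208 over all genes and 0 of the 8 in both.

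MGLL had 20.8, 20.4 and 17.7 FPKM in Lv133KD and 18.1, 17.9 and 24.8 FPKM in Lv143KD, against 23.6, 22.3 and 27.3 FPKM in Lv3NC. Every Lv133KD library lay below every Lv3NC library, while Lv143KD replicate 3 lay above Lv3NC replicates 1 and 2. Both knockdown vectors had lower MGLL than Lv3NC in 3 of 3 same-number pairs. The log2 fold change was -0.30 for Lv133KD (SE 0.12, limma adjusted p = 0.283 with the block) and -0.27 for Lv143KD, so neither difference was called.

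PTGS2 had 30.9, 11.7 and 24.8 FPKM in Lv133KD and 33.4, 11.9 and 35.9 FPKM in Lv143KD, against 34.4, 13.5 and 24.5 FPKM in Lv3NC. Replicate 2 was low under all 3 vectors, and the groups overlapped widely. Log2 fold changes were -0.11 for Lv133KD and 0.11 for Lv143KD. Its SE was 0.49 without the block and 0.12 with it, so the fit without the block left the wider margin.

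PTGS1 had 15.0, 10.8 and 16.0 FPKM in Lv133KD and 15.4, 10.8 and 23.2 FPKM in Lv143KD, against 16.4, 11.3 and 16.0 FPKM in Lv3NC. Lv143KD replicate 3 was the highest library for both cyclooxygenases, at 146.5% of its same-number Lv3NC library for PTGS2 and 145.6% for PTGS1, while the other pairs of that comparison stood at 87.9% to 97.0%. Log2 fold changes of PTGS1 were -0.06 for Lv133KD and 0.12 for Lv143KD. The library that stood high for both enzymes also had the highest PLA2G4A value of the table and the lowest PTGES3 value.

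PTGES had 223.6, 158.3 and 175.0 FPKM in Lv133KD and 226.1, 149.1 and 156.1 FPKM in Lv143KD, against 219.8, 184.7 and 173.9 FPKM in Lv3NC. Replicate 1 was the highest library under each vector, and the groups overlapped. PLA2G4A had 9.10, 8.96 and 12.0 FPKM in Lv133KD and 9.51, 9.50 and 16.5 FPKM in Lv143KD, against 9.08, 7.78 and 15.9 FPKM in Lv3NC, with replicate 3 the highest under each. PTGES2 ranged over 12.3 to 12.5, 11.08 to 12.2 and 10.2 to 13.1 FPKM in Lv133KD, Lv143KD and Lv3NC. PTGES3 ranged over 133.6 to 158.7, 108.5 to 159.4 and 117.4 to 149.9 FPKM, and PTGER4 over 3.01 to 3.58, 2.80 to 3.96 and 2.86 to 3.38 FPKM, in that order of vectors. The log2 fold changes of these 5 genes lay between -0.07 and 0.12 for Lv133KD and between -0.14 and 0.12 for Lv143KD.

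Lv133KD was also set against Lv143KD directly. No gene was called with or without the block (0% in both), and 15 and 209 genes had an unadjusted p under 0.05 without and with it. PTGES2 was the only one of the 8 genes without overlap, higher in Lv133KD, where 2.66% of all genes had separate groups. Log2 fold changes ran between -0.22 for PTGS2 and 0.11 for PTGES3.

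**Figure D3:**
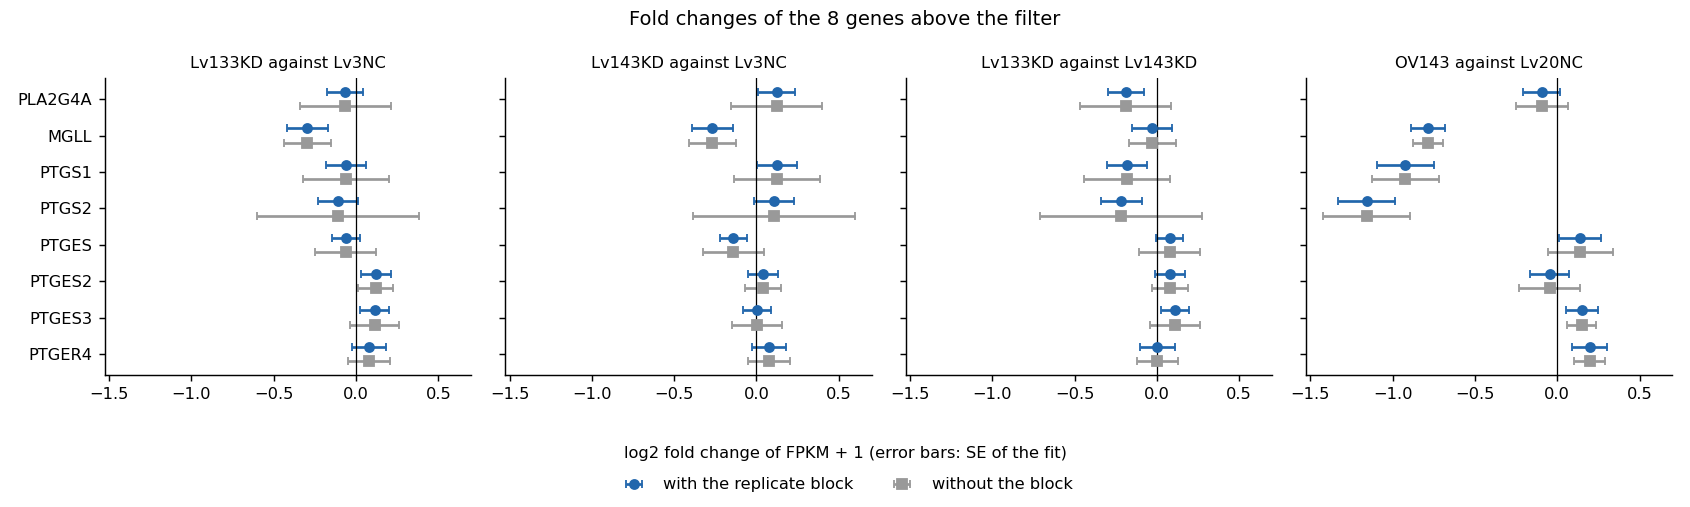
Log2 fold change of FPKM + 1 (horizontal axis) for the 8 genes above the filter in the 4 comparisons, with the SE of the fit as bars, for the fit with the replicate block (circles) and without it (squares). PTGS2, PTGS1 and MGLL lie at -1.16, -0.92 and -0.78 in OV143 against Lv20NC, and all values of the knockdown comparisons lie between -0.30 and 0.12.

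Within the knockdown table the replicate number, whose meaning the labels do not give, held more of the variation than the vector did for 7 of the 8 genes. Such an excess was usual in this table, where the median share over all tested genes was 58.0% for the number and 13.1% for the vector. PTGS2 was at 11.7 to 13.5 FPKM in the 3 libraries numbered 2 and at 24.5 to 35.9 FPKM in the other 6. PTGS1 followed, at 10.8 to 11.3 FPKM in number 2 and 15.0 to 23.2 FPKM elsewhere, whereas PTGES3 was higher in number 2, at 149.9 to 159.4 FPKM against 108.5 to 138.8 FPKM. PTGES was set apart by number 1 (219.8 to 226.1 FPKM, against 149.1 to 184.7 FPKM elsewhere) and PLA2G4A by number 3 (12.0 to 16.5 FPKM, against 7.78 to 9.51 FPKM).

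The number held 93.4% of the variation of log2(FPKM + 1) of PTGS2 and the vector 2.10%. For PLA2G4A, PTGES, PTGS1 and PTGES3 the share of the number was 85.2%, 84.4%, 79.4% and 74.2%, beside a median of 58.0% over all tested genes. PTGER4 and PTGES2 lay below that median, at 41.0% and 32.0%. So did MGLL, with 14.3% between numbers and 44.6% between vectors. These shares are a description of 9 libraries and carry no test.

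The ratio of PTGS2 to PTGS1 was nearly fixed within a number. It was 2.06 to 2.16 in the libraries numbered 1, 1.08 to 1.19 in those numbered 2 and 1.54 to 1.55 in those numbered 3, whatever the vector. Lv143KD replicate 3, which stood high for both genes, kept the ratio of its number.

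**Figure D4:**
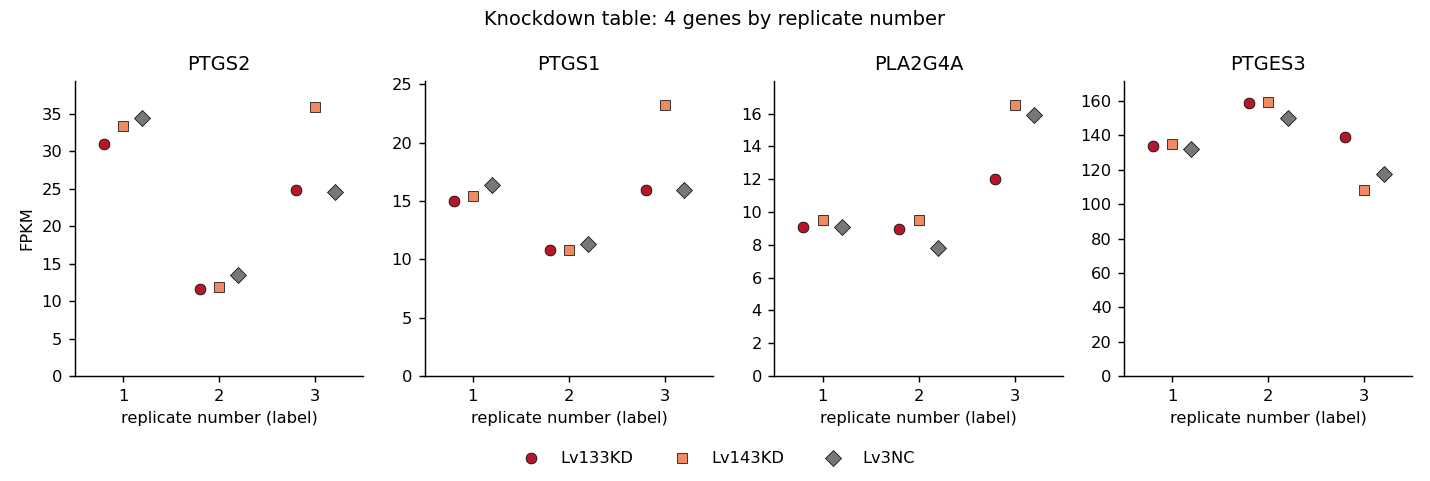
FPKM of PTGS2, PTGS1, PLA2G4A and PTGES3 (vertical axes, from 0) in the 9 libraries of the knockdown table by replicate number, with the vector given by marker and colour. The libraries numbered 2 are lowest for PTGS2 (11.7 to 13.5 FPKM) and PTGS1 and highest for PTGES3, and those numbered 3 are highest for PLA2G4A.

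Around these genes, a list of 71 other genes of arachidonate metabolism was examined, of which 65 were found in the knockdown table and 61 in the overexpression table. Of these, 35 and 34 passed the filter. None was called in the knockdown comparisons with or without the block. In OV143 against Lv20NC 1 of the 34 was called with the block, where 1.94% of all tested genes were called, so the count is near the background, and 0 were called without it. Of their log2 fold changes, 25 were positive and 9 negative, with a median of 0.09 beside -0.02 over all genes. This lean rested on OV143 replicate 2, since without it 18 were positive and 16 negative, with a median of 0.01. With quantile normalisation of all libraries 23 were positive and 11 negative, with a median of 0.09 beside 0.005 over all genes. The gene called was PLA2G15, a lysosomal phospholipase, which rose in OV143.

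PLA2G15 had 3.77, 4.12 and 4.26 FPKM in OV143, against 2.54, 2.42 and 2.50 FPKM in Lv20NC. The groups did not overlap and each was even. Its log2 fold change was 0.53, with an SE of 0.11 and a limma adjusted p of 0.0366 with the block and 0.124 without it. Without OV143 replicate 2 it was called without the block as well (adjusted p = 0.0142).

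In the arachidonate release and reacylation list, 9 of 15 tested genes had positive log2 fold changes in OV143 and 6 negative, and without OV143 replicate 2 the counts were 6 and 9. Its most abundant genes were ANXA1, the annexin that restrains phospholipase A2, at 837 to 1202 FPKM in the knockdown table and 1205 to 1469 FPKM in the overexpression table, and ACSL4, which loads arachidonate onto coenzyme A, at 28.9 to 57.5 FPKM in the overexpression table. Their log2 fold changes in OV143 were 0.11 and -0.29, neither called. Of the other prostanoid synthases, reductases and transporters, 6 of 9 were positive and 3 negative. AKR1B1, an aldose reductase that also makes prostaglandin F, averaged 92.4 ± 10.6 FPKM in OV143 and 87.4 ± 6.34 FPKM in Lv20NC, and the reductase PTGR1, which inactivates prostaglandins and leukotrienes, averaged 50.9 ± 10.1 and 42.9 ± 3.51 FPKM (SD, n = 3 each).

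None of the 8 other prostanoid receptors listed passed the filter in either table. The highest values were 1.02 FPKM for PTGER2 and 0.99 FPKM for PTGIR, the receptors for prostaglandin E and prostacyclin. PTGER4 was thus the only prostanoid receptor tested.

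The lipoxygenase and leukotriene list had 5 tested genes and the epoxide and peroxide list 5, and all of these log2 fold changes were positive in OV143, though none was called. Without OV143 replicate 2 the positive ones were 4 of 5 and 3 of 5, and with quantile normalisation 4 of 5 and 5 of 5. MGST3, a microsomal glutathione transferase, averaged 235.1 ± 59.0 FPKM in OV143 and 191.9 ± 17.6 FPKM in Lv20NC. LTA4H, the leukotriene A4 hydrolase, averaged 89.8 ± 1.38 and 88.9 ± 1.80 FPKM. The peroxidase GPX1 averaged 706 ± 196 and 608 ± 40.2 FPKM, and GPX4 averaged 197 ± 52.5 and 179 ± 12.7 FPKM (SD, n = 3 each). The epoxide hydrolase EPHX1 came nearest to a call, with a log2 fold change of 0.44 and a limma adjusted p of 0.0712 with the block.

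RNA-binding proteins that act on the stability of PTGS2 mRNA formed a further list of 8 genes, of which 7 were tested. None was called in any comparison with or without the block. ZFP36L1, of the family of proteins that promote decay of AU-rich mRNAs, averaged 74.0 ± 7.09 FPKM in OV143 and 99.5 ± 7.28 FPKM in Lv20NC (SD, n = 3 each; log2 fold change -0.42, limma adjusted p = 0.0638 with the block). It was named after its values were seen, and without OV143 replicate 2 it was called without the block (adjusted p = 0.0396). ZFP36, whose product destabilises PTGS2 mRNA, had log2 fold changes of -0.69 in Lv133KD and -0.57 in Lv143KD, with limma adjusted p of 0.163 and 0.486 with the block, and was likewise singled out after its values were seen. The most abundant of the list were ZFP36L2 and HNRNPD, with log2 fold changes of -0.22 and 0.19 in OV143. With the block and libraries numbered 2 left out, ZFP36L1 and ZFP36L2 were called in OV143, at -0.36 and -0.19. That setting was chosen after seeing the data and leaves 1 residual degree of freedom.

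**Figure D5:**
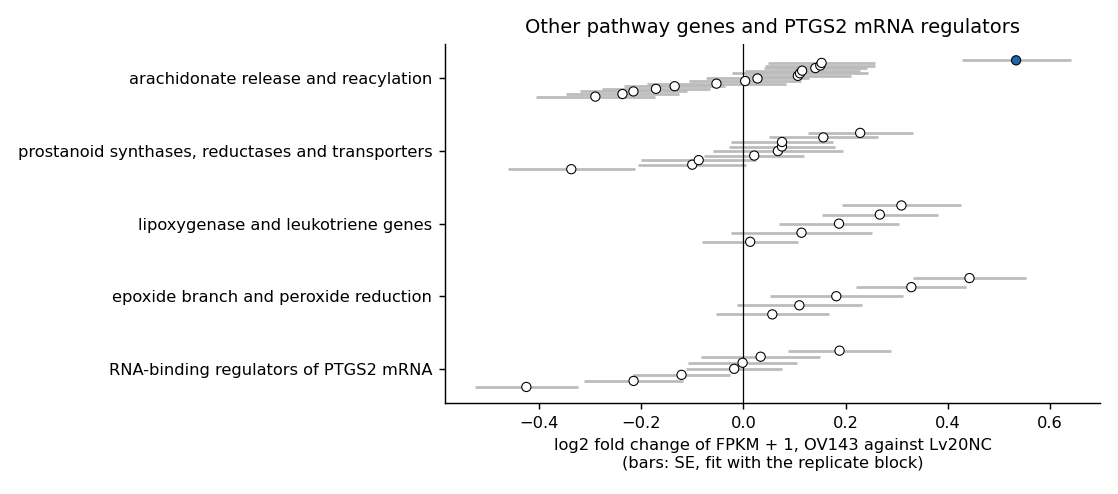
Log2 fold change of FPKM + 1 in OV143 against Lv20NC (horizontal axis) for the tested genes of the other pathway lists and of the RNA-binding list, a circle a gene, with the SE of the fit with the replicate block as bars. The filled circle is PLA2G15 at 0.53, the only gene called. All 5 circles of the lipoxygenase list and all 5 of the epoxide list lie above 0, where without OV143 replicate 2 the positive ones were 4 and 3.

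The genes whose log2(FPKM + 1) was most like that of PTGS2 were INHBE, SYNJ2, KLF7, SLC7A11 and SLC1A4, ranked by the smaller Pearson r of the 2 tables. INHBE, an inhibin subunit gene, had r of 0.97 over the 9 libraries of the knockdown table and 0.98 over the 6 of the overexpression table. The cystine carrier gene SLC7A11 and the amino acid carrier gene SLC1A4 each had 0.96 and 0.97, and PTGS1 had 0.89 and 0.95 and ranked 164th. The points share vectors and replicate numbers, and in the knockdown table the likeness leaned on the libraries numbered 2. Over the 6 libraries left without them r was 0.45 for INHBE, 0.80 for SYNJ2, 0.57 for KLF7, 0.49 for SLC7A11 and 0.47 for SLC1A4, and it was 0.46 for PTGS1. Within the 9 genes, PTGES3 had r of -0.80 and -0.74 with PTGS2. In the knockdown table PTGES3 was highest and PTGS2 lowest in the libraries numbered 2. For PTGES3 the r without those libraries was not computed, so its value there may lean on them too.

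Summed markers of other cell types were low beside the epithelial ones in OV143 and Lv20NC. Of 9 listed leukocyte and mast cell markers the overexpression table held 4, the leukocyte genes CD3E, CD14, CD68 and CSF1R. Their summed FPKM was 5.54 to 8.61 in OV143 and 5.15 to 5.79 in Lv20NC. PTPRC and the mast cell genes KIT, CPA3, FCER1A and MS4A2 were absent from it, so mast cells could not be assessed there. The sum of the 8 fibroblast and smooth muscle markers found, of 10 listed, was 5.22 to 6.91 in OV143 and 4.56 to 4.96 in Lv20NC. The sum of 5 endothelial markers was 5.31 to 6.86 in OV143 and 6.82 to 7.10 in Lv20NC, and that of 6 epithelial markers was 1978 to 2776 and 2041 to 2316. In the knockdown table the summed leukocyte and mast cell markers came to 3.85 to 6.18 FPKM over all its libraries. PTPRC was listed at 0 in every library there, while CD14 and CD68 passed the filter. The fibroblast and smooth muscle sum was 4.59 to 8.55 FPKM, the endothelial sum 11.07 to 13.63 and the epithelial sum 1374 to 2063. The endothelial gene CDH5 averaged 9.06 to 9.44 FPKM by vector, above the epithelial gene VIL1 at 1.75 to 1.84 FPKM. The part of the marker differences between OV143 and Lv20NC in the lower PTGS2, PTGS1 and MGLL of OV143 was not tested. In bulk RNA, fewer cells expressing a gene and less RNA of it per cell cannot be told apart.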

How the data were processed

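Total RNA of IPEC-J2 cells was sequenced, 15 libraries in 5 groups of 3. The authors deposited a table of 9 knockdown and a table of 6 overexpression libraries, and per the file headers their values are FPKM. The build is Sscrofa11.1, per the submitters' processing notes. For the aligner, the counting tool and strand use, the sources used here give nothing. Gene numbers were matched to symbols and coordinates in a RefSeq table of that build (18618 of 19000 and 16949 of 17001 genes matched).

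Tests used log2(FPKM + 1), a scale that understates changes of weakly expressed genes. Each table was tested alone, over genes that reached 1 FPKM in 3 or more libraries, with limma 3.58.1 in R 4.3.3 (trended variance, two-sided, Benjamini-Hochberg over all tested genes), and called at an adjusted p under 0.05. The fitting was tested on simulated data with independent noise and no effect of the replicate number, so that test does not bear on the pairing behind the block. The median SE of a knockdown log2 fold change was 0.14 (block: 0.10), and that of OV143 was 0.13 (block: 0.11). Depth is unknown, since FPKM keeps no read total.

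Deviations of libraries with the same replicate number correlated at 0.27 to 0.85 over 9 pairs and at 0.23 to 0.72 over 3 pairs, all above 0.1, so the numbers were taken to pair the libraries, from this check and not from the labels. Libraries with different numbers reached 0.38 and 0.54, and in the overexpression table OV143 replicate 1 correlated more with Lv20NC replicate 3 (0.54) than with Lv20NC replicate 1 (0.23). The calls made with the block rest on this pairing.

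The 9 genes, the gene lists and the markers were chosen with earlier results of these data known. Named were all 9 genes, every other listed gene called with or without the block, the 2 most abundant of each list and the 5 genes most like PTGS2. Outside this rule, EPHX1, ZFP36L1 and ZFP36 were named after their values were seen. CYP2J34 and MBOAT7 were named as calls of the block without libraries numbered 2. Alternatives were the block, a pseudocount of 0.1, no filter, quantile normalisation, the 2 compared groups alone and each library left out in turn.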

Additional observations from a re-analysis of the deposited data

How the results depend on the processing

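The depth of these libraries is unknown. For all genes called in Lv133KD against Lv3NC, 2 without the block, the replicate block gave 30, no filter on low values 1, the 2 compared groups alone 0, leaving out a library 0 to 0, and the block without libraries numbered 2, a setting chosen after seeing the data, 14. For Lv143KD against Lv3NC, 2 without the block, these were 20, 1, 0 and 0 to 0, and the last setting gave 3. For OV143 against Lv20NC, 0 without the block, the block gave 223, quantile normalisation 6, leaving out a library 0 to 511, with 511 for OV143 replicate 2, and the block without libraries numbered 2 gave 1454 on 1 residual degree of freedom. The other pathway genes called there were 0 without the block, 1 with it, 0 to 1 with a library left out, and 4 with the block and libraries numbered 2 left out (PLA2G15, EPHX1, CYP2J34 and MBOAT7). The cause of these shifts was not tested.

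Over 11 alternatives in OV143, log2 fold changes ran from -1.39 to -0.83 for PTGS2, -1.09 to -0.65 for PTGS1, -0.84 to -0.74 for MGLL, 0.09 to 0.18 for PTGES3 and 0.15 to 0.27 for PTGER4. PTGES, PTGES2 and PLA2G4A changed sign in 2, 4 and 2 of them. In the 3 knockdown comparisons 0 of the 8 genes were called under any of 12 alternatives. The replicate block changed no call beyond those given.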
